A study of Xenopus laevis with 4 samples.

Results

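The gene models examined here were those named *armc7*, *iffo2*, *fam46a* and *cdca7* in a *Xenopus laevis* gastrula transcriptome, 10 of 45098 models in all. They were found by name: after removal of a final .L or .S, which mark the L and S homeologs of this allotetraploid frog, the name had to equal *armc7* or *iffo2*, or start with *fam46a* or *cdca7*. Of the 10, *armc7.L*, *iffo2.L*, *fam46a.1* and *cdca7-like.1.L* had been picked on their values in these same libraries. Their transcripts were more abundant after injection of an antisense oligonucleotide against Gcn5 mRNA than after injection of water. Their differences are therefore given as a description, with no test. The other 6, *iffo2.S*, *fam46a.S*, *cdca7.L*, *cdca7.S*, *cdca7l.L* and *cdca7l.S*, came in by name alone and were tested, to ask whether homeologs and related copies shared the rise. No *armc7.S* model was analysed here. All embryos were outbred and were injected at the 1-cell stage, either with an antisense oligonucleotide directed at the mRNA of the histone acetyltransferase Gcn5 (gene *kat2a*; 0.8 ng, Gcn5-AS embryos) or with water (control embryos). Each of the 2 Gcn5-AS and 2 control samples held 10 whole embryos of stage 10.5, the early gastrula. Whether samples of a group came from separate clutches is not stated, so p-values here reflect sample-to-sample spread that may be technical.

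Little connects these 4 gene names in textbook biology. Armc7 is a small armadillo repeat protein, which in human cells binds Rbm48 and belongs to the minor spliceosome, the machine that removes the rare U12-type introns. Iffo2 is an intermediate filament family orphan protein, related to the nuclear lamins and keratins by its rod domain, and its role is poorly known. Fam46a, now called Tent5a, belongs to a family of non-canonical poly(A) polymerases that lengthen mRNA tails, and in *Xenopus* it has been linked to BMP signalling through Smad proteins. Cdca7 is a zinc finger protein that recruits the nucleosome remodeler Hells to chromatin and thereby serves maintenance of DNA methylation, and its relative Cdca7l binds Myc.

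The oligonucleotide is shown because it is the agent that sets the groups apart. It is written from 5′ to 3′, with capitals for bases next to a chemically stabilised (DMED-modified) linkage and small letters for the unmodified gap, where RNase H can cut the paired mRNA.
Gcn5-AS[BJ220]: TCAAACacaagCCGGGTT

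Reads assigned to genes came to between 2351039 and 4093025 per library. Reads per library were solved from group means, and the libraries are named X and Y with arbitrary letters that are not tied to a replicate number. Wherever values of a group are given as a pair, X comes before Y. A normalized read count is the number of reads of a model divided by the library's size factor. The targeted transcript *kat2a.L* had 52.9 and 62.6 normalized reads in Gcn5-AS embryos, against 50.4 and 103.5 in control embryos. Counts of *kat2a.S* were 13.7 and 35.5 in Gcn5-AS embryos and 27.9 and 45.7 in control embryos, and the groups overlapped for both homeologs (limma-voom adjusted p of 0.742 and 0.445). Their log2 fold changes were −0.26 (95% interval from −1.11 to 0.58) and −0.67 (−1.70 to 0.35). A loss of the target mRNA was thus not shown in these 4 libraries, but it was not excluded either. The intervals include losses, and they rest on between 20 and 94 reads of a homeolog in a library. In separate assays, the paper reports by quantitative PCR that *gcn5* transcripts were depleted after this injection. Its ChIP measurements found Gcn5 binding reduced, and human *GCN5* mRNA rescued the phenotype. The paper describes that phenotype as impaired involution and developmental arrest at gastrulation, with signs of apoptosis that were mostly ventral. Its part in the differences given here was not tested. The libraries are called by their labels throughout. The SD of log2 ratios over the tested models ranged from 0.80 to 1.12 for pairs of a Gcn5-AS and a control library, and was 0.82 between both Gcn5-AS libraries and 0.71 between both controls. Of 14 early gastrula marker symbols 10 had a model, 21 models in all, and each of these had at least 1 read. *gsc*, *sox17a* and *mix1* were among them, while *krt12.L* had at most 8 reads in a library. Of 10 models of later blood, muscle and neuronal genes 5 had no read, and their summed counts were 1.37 and 0.934 in Gcn5-AS embryos and 8.58 and 2.69 in control embryos.

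Transcripts of *armc7.L* were more abundant in both Gcn5-AS libraries. There were 339 and 229 normalized reads in Gcn5-AS embryos, against 58.4 and 95.5 in control embryos, a ratio of group means of 3.69. These values rested on 494 and 245 reads in Gcn5-AS embryos and on 109 and 71 reads in control embryos. The lower Gcn5-AS library lay above the higher control, and the ratio was between 2.97 and 4.86 when any single library was left out. This is a description only, since *armc7.L* was picked for its rise. In whole embryos, more cells that express a gene and more RNA per cell cannot be told apart.

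Both *iffo2* homeologs had higher counts in Gcn5-AS embryos. Of *iffo2.L* there were 760.5 and 592 normalized reads in Gcn5-AS embryos, against 122 and 207 in control embryos (ratio of 4.11). Of *iffo2.S*, which was taken by name, there were 209 and 105.5 in Gcn5-AS embryos, against 40.7 and 39.0 in control embryos (ratio of 3.94). The controls were close to each other for *iffo2.S*, and both Gcn5-AS libraries lay above them. *iffo2.S* rose in Gcn5-AS embryos, with a log2 fold change of 1.89 ± 0.41 (SE), a 95% interval from 1.03 to 2.74 and a limma-voom p of 0.0138 after Benjamini-Hochberg adjustment over all 11272 models tested. At the threshold of 0.1 used throughout, 4.46% of all tested models were called higher and 4.17% lower (503 and 470 models). With scaling by total reads, which moved the median log2 fold change by −0.17, these were 19 and 171. With DESeq at the same false discovery rate, the paper reports fewer changed transcripts, more of them decreased than increased. The shares given here thus belong to limma-voom on the recovered reads. The L homeolog took 78.5% and 84.9% of the *iffo2* reads in Gcn5-AS embryos, and 75.0% and 84.2% in control embryos, so the split between homeologs overlapped between groups. Together the homeologs had 969 and 698 normalized reads in Gcn5-AS embryos, against 163 and 246 in control embryos (ratio of 4.08). The call of *iffo2.S* was lost without control X (adjusted p of 0.227) and with scaling by total reads (0.12). How the reads of near-identical homeologs were assigned is not given in the sources used here, so the values of a pair may not be fully separate. The related *iffo1-like* models were hardly detected, with 12 and 5 reads in Gcn5-AS embryos and 7 and 1 in control embryos for the L copy, and were not tested.

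**Figure D1:**
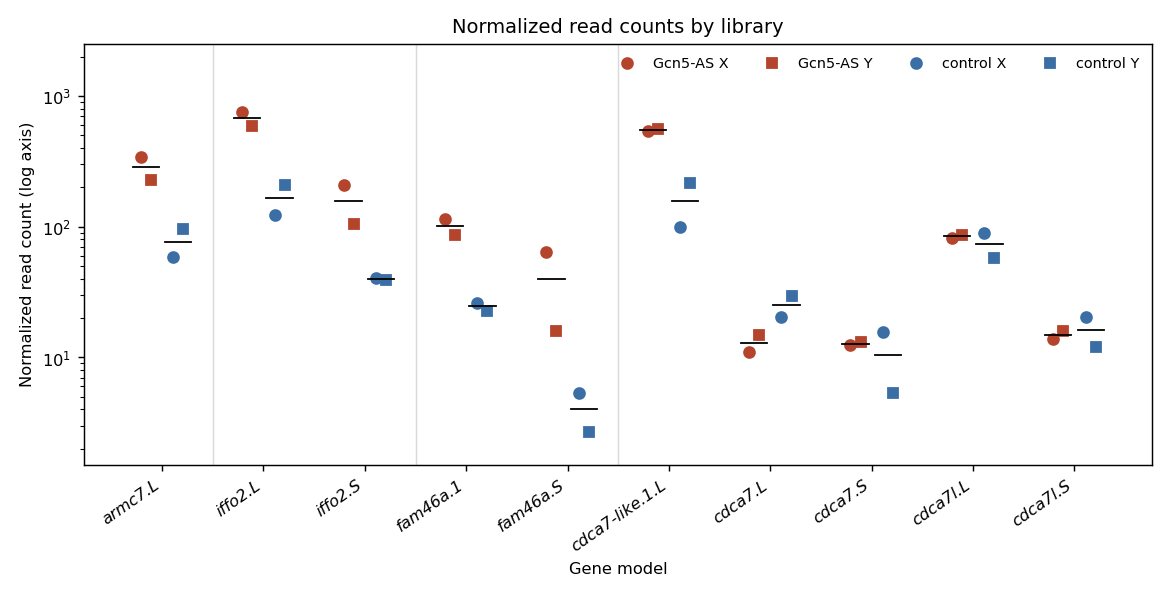
Normalized read counts (log axis) of the 10 gene models in Gcn5-AS embryos (red) and control X and Y (blue), with circles for X, squares for Y and black bars for group means. Both red symbols lie above both blue ones for *armc7.L*, *iffo2.L*, *iffo2.S*, *fam46a.1*, *fam46a.S* and *cdca7-like.1.L*, while the 4 models at the right have lower or overlapping counts.

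Both *fam46a* models had higher counts in Gcn5-AS embryos, but the second one was scarce. For *fam46a.1* there were 114 and 86.9 normalized reads in Gcn5-AS embryos, against 26.3 and 22.9 in control embryos (ratio of 4.09). The deposited table does not say to which subgenome this copy belongs. Replicates agreed better than for the other chosen models, with a within-group SD of 0.22 on the log2 scale, against 0.45 for *armc7.L*, 0.42 for *iffo2.L* and 0.56 for *cdca7-like.1.L*. For *fam46a.S* there were 63.9 and 15.9 normalized reads in Gcn5-AS embryos, against 5.36 and 2.69 in control embryos, from 93 and 17 reads in Gcn5-AS embryos and 10 and 2 in control embryos. The groups did not overlap, but Gcn5-AS X was far above Gcn5-AS Y. Its log2 fold change was 2.80 ± 0.99 (SE), with a 95% interval from 0.75 to 4.84, and it was not called (limma-voom adjusted p of 0.102, unadjusted 0.0093). The model passed the minimum mean count of 10 only through Gcn5-AS embryos (39.9, against 4.03 in control embryos). It is thus not taken as support for a shared rise, whatever its p-value. It was called with limma-trend (adjusted p of 0.0398), with no filter on low counts (0.0593) and without Gcn5-AS Y (0.000797). Without Gcn5-AS X its mean count fell under the minimum of 10, and it was not tested.

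Of the other *fam46* genes, relatives that were not part of the chosen names, 1 of 4 tested models was called, and their intervals overlapped. Both Gcn5-AS libraries lay above both controls in each of these 4, as in 26.3% of all tested models. The gap was small for *fam46b.L* (336 normalized reads in Gcn5-AS Y, 332 in control Y). Over all tested models 4.46% were called higher. *fam46c.L* rose, with 579 and 296 normalized reads in Gcn5-AS embryos against 174 and 152 in control embryos, a log2 fold change of 1.34 ± 0.37 (SE) and a limma-voom adjusted p of 0.0415. This call was lost when Gcn5-AS X (0.327), control X (0.413) or control Y (0.265) was left out, and with scaling by total reads (0.367) or by total reads outside the 10 most abundant models (0.104). *fam46c.1* had 473 and 317 in Gcn5-AS embryos, against 210 and 234 in control embryos, and was not called (log2 fold change of 0.81, interval from 0.08 to 1.53, limma-voom adjusted p of 0.183). *fam46b.L* and *fam46b.S* were not called either, with log2 fold changes of 0.45 (interval from −0.28 to 1.19) and 0.63 (−0.14 to 1.39). The fold changes of the *fam46b* homeologs did not differ detectably from each other (L over S log2 difference of −0.20, interval from −1.34 to 0.95). *fam46d.L* had at most 6 reads in a library, and *fam46d.S* had 2 reads in all. Over the 8 *fam46* models *fam46a.1* took 5.69% and 6.92% of reads in Gcn5-AS embryos, against 2.96% and 2.69% in control embryos.

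**Figure D2:**
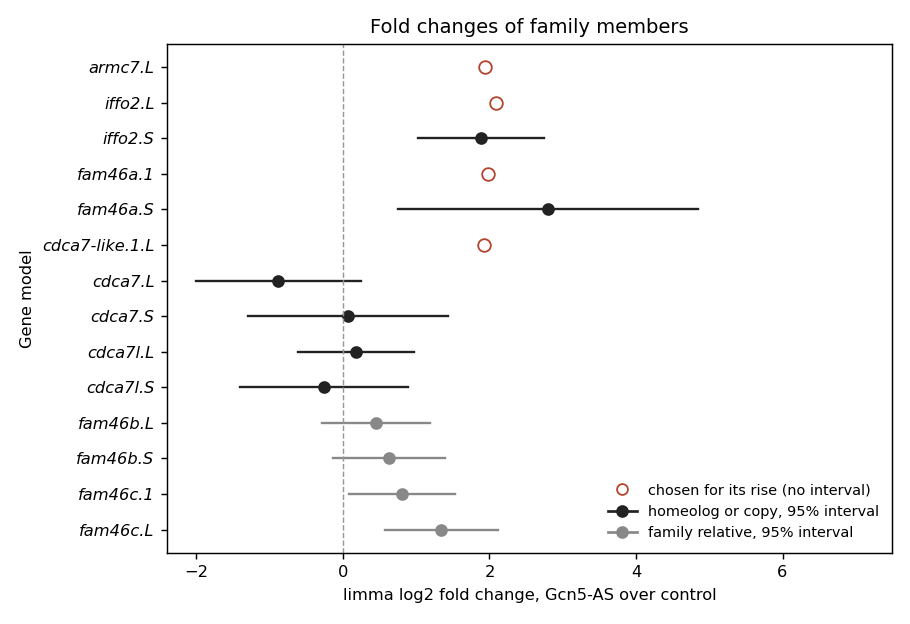
Log2 fold changes (Gcn5-AS over control, limma-voom) of the 10 gene models and of 4 *fam46b* and *fam46c* models, with 95% intervals for models that were not chosen on their values and open circles for the 4 that were. The intervals of *iffo2.S*, *fam46a.S*, *fam46c.1* and *fam46c.L* lie above 0, and only *iffo2.S* and *fam46c.L* were past the adjusted threshold. *fam46a.S* passed the filter on low counts only through Gcn5-AS embryos and is not taken as support.

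Among *cdca7* models the picture was split. *cdca7-like.1.L* had 535 and 561 normalized reads in Gcn5-AS embryos, against 99.2 and 216.5 in control embryos (ratio of 3.47). Here the Gcn5-AS libraries were nearly equal, control Y was above control X, and the ratio was between 2.53 and 5.53 when a library was left out. A ratio of this size or larger was found in 1.22% of all tested models, which is given as a description, since the 4 chosen models were picked on this contrast. *cdca7.L* had 10.99 and 14.9 normalized reads in Gcn5-AS embryos, against 20.4 and 29.6 in control embryos, both lower, but was not called (log2 fold change of −0.88 ± 0.54, SE, interval from −2.0 to 0.24, limma-voom adjusted p of 0.352). *cdca7.S* had 12.4 and 13.1 in Gcn5-AS embryos, between the controls with 15.5 and 5.38, and a log2 fold change of 0.07 (interval from −1.29 to 1.43). The Myc-binding relative *cdca7l.L* had 81.7 and 86.9 in Gcn5-AS embryos, against 89.5 and 57.8 in control embryos (log2 fold change of 0.18, interval from −0.61 to 0.97), and *cdca7l.S* had 13.7 and 15.9 in Gcn5-AS embryos, against 20.4 and 12.1 in control embryos (−0.26, from −1.41 to 0.89). The upper ends of the intervals of *cdca7.L*, *cdca7l.L* and *cdca7l.S* lie below 1 on the log2 scale, and that of *cdca7.S* lies below 2. The difference between *cdca7-like.1.L* and these copies was not tested, since *cdca7-like.1.L* was picked for its rise.

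In reads, *cdca7-like.1.L* made up 81.8% and 81.1% of the 5 *cdca7* models in Gcn5-AS embryos, and 40.5% and 67.4% in control embryos. Longer transcripts yield more reads, so these are shares of reads and not of molecules. Without it, the other 4 models summed to 119 and 131 normalized reads in Gcn5-AS embryos and 146 and 105 in control embryos, a ratio of group means of 0.996. All 5 together had 654 and 692 in Gcn5-AS embryos, against 245 and 321 in control embryos (ratio of 2.38). Fold changes of the L and S homeologs were not detectably different for *cdca7* (L over S log2 difference of −1.36, interval from −2.99 to 0.28, limma adjusted p of 0.576 over 2286 pairs) or for *cdca7l* (0.31, from −0.58 to 1.21, 0.826). None of the 2286 homeolog pairs passed the threshold in this limma test, and 232 (10.1%) had an unadjusted p under 0.05.

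**Figure D3:**
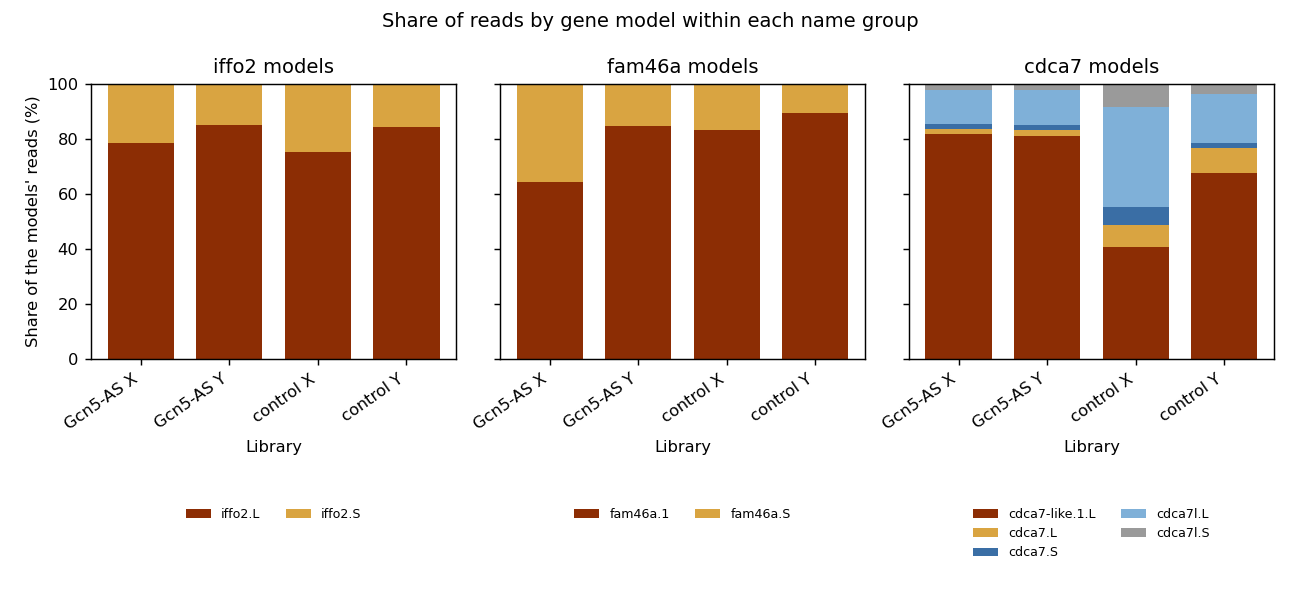
Share of reads (%) of each gene model within the *iffo2*, *fam46a* and *cdca7* name groups, one bar per library from Gcn5-AS X to control Y. The *iffo2* bars divide alike in both groups, the *fam46a.S* share is highest in Gcn5-AS X at 35.9%, and *cdca7-like.1.L* takes over 80% of the *cdca7* bar in both Gcn5-AS libraries.

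Over the 6 models taken by name, 1 (*iffo2.S*) was called higher and none lower by limma-voom, and 2 (*iffo2.S* and *fam46a.S*) had an unadjusted p under 0.05, as had 22.0% of all tested models. Both Gcn5-AS libraries lay above both controls in 2 of the 6, again *iffo2.S* and *fam46a.S*, and below them in 1, while the other 3 overlapped. In both tallies *fam46a.S* is not taken as support, which leaves *iffo2.S* alone. Over all 11272 tested models 26.3% were above and 25.0% below in this sense. The rise was thus found in the homeolog of *iffo2.L* and was not detected in 4 models of *cdca7* and *cdca7l*. The question was left undecided for *fam46a.S*, which passed the filter on low counts only through Gcn5-AS embryos. For comparison, 264 other models that limma-voom called higher had a tested homeolog, and that homeolog was above 0 in 256 and itself called higher in 118. A pair with both homeologs called was counted from each side. Homeologs that passed the filter on low counts only through Gcn5-AS embryos were not set apart. These counts are therefore a description only. Homeologs of all 2286 pairs had the same sign in 73.8%. With only 2 libraries a group, an exact permutation test of 1 model could not go below a two-sided p of 0.333.

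**Figure D4:**
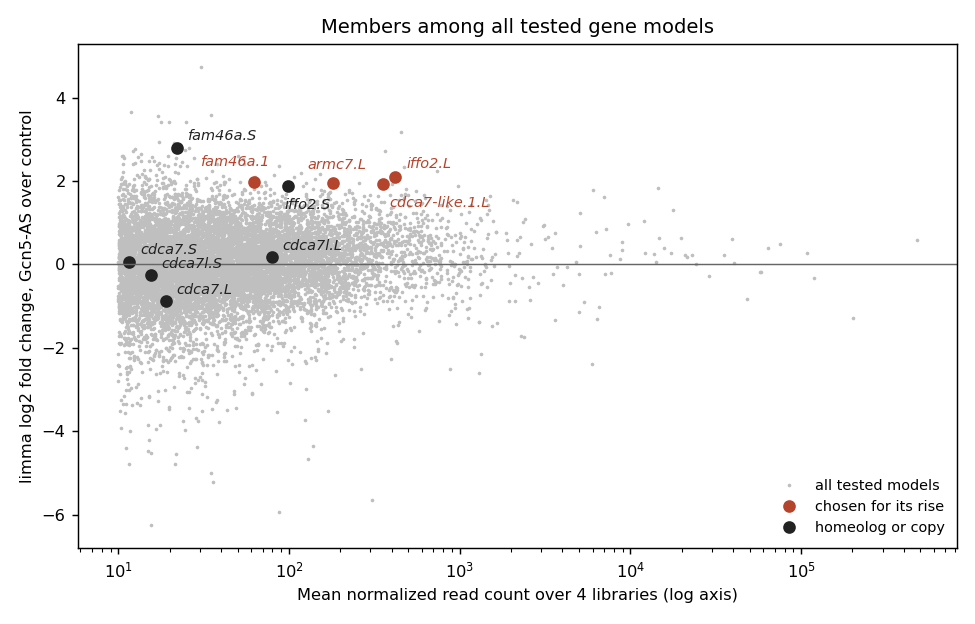
Log2 fold change (Gcn5-AS over control, limma-voom) against the mean normalized read count (log axis) for all 11272 tested models (grey), with the 4 chosen models in red and the 6 taken by name in black. The red points and *iffo2.S* lie near a log2 fold change of 2 at the upper edge of the grey cloud, and the *cdca7* and *cdca7l* points lie within it.

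The models whose counts followed the chosen ones most closely over the 4 libraries were found by Euclidean distance of centred log2 counts among 2840 other named models whose mean count reached 50. This is a description over few libraries. Nearest to *armc7.L* were *znrf1.S*, an E3 ubiquitin ligase gene (distance of 0.13), *rassf8.L* (0.16) and *wars2.L*, encoding the mitochondrial tryptophanyl-tRNA synthetase (0.18). *znrf1.S* had 510 and 306 normalized reads in Gcn5-AS embryos and 79.9 and 136 in control embryos. Nearest to *iffo2.L* were *socs1.S*, a suppressor of cytokine signalling (0.16), *wars2.L* (0.22) and *armc7.L* itself (0.24). *socs1.S* had 179 and 162 in Gcn5-AS embryos and 32.2 and 53.8 in control embryos, and it was also the nearest to *cdca7-like.1.L* (0.34), followed by *fam110c.L* (0.36) and *fam8a1.L* (0.37). *fam46a.1* followed another course, with controls at nearly one level, and was nearest to the adducin gene *add3.S* (0.19), *dclre1a-like.L* (0.36) and *sox21-like.1.S* (0.40). Distances among the 4 ranged from 0.24 between *armc7.L* and *iffo2.L* to 0.99 between *fam46a.1* and *cdca7-like.1.L*.

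Over all tested models the median log2 fold change was 0.02, with 4.46% called higher and 4.17% lower. Genes of the processes these names belong to were examined as lists. Of the 175 distinct models tested in them 12 were called higher and 7 lower, but 0 and 3 with scaling by total reads, and without control X none was called higher. Of 4 minor spliceosome models none was called higher and 1 fell, *cript.L* (log2 fold change of −2.19, limma-voom adjusted p of 0.0636), and the list median was −0.62. This call was lost with limma-trend, at a false discovery rate of 0.05, with scaling by total reads and without Gcn5-AS X, control X or control Y. At a minimum mean count of 50, *cript.L* (mean count of 23.3) was not tested. The Armc7 partner *rbm48.S* had 3.43 and 8.41 normalized reads in Gcn5-AS embryos and 1.61 and 5.38 in control embryos, too few to be tested. Of 21 other armadillo repeat models, which include catenins and importins, none was called in either direction (median of −0.01, but 0.06 without Gcn5-AS X). Likewise none of 10 models of intermediate filament and nuclear lamina genes was called. Their median of 0.25 turned to −0.33 without Gcn5-AS X and at a minimum mean count of 50, and to −0.03 with scaling by total reads.

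Among poly(A) tail genes, 1 model was called higher and 1 lower in each list, where 4.46% and 4.17% of all tested models were. Of 11 tested models of non-canonical poly(A) and poly(U) polymerases, *fam46c.L* rose and *tut1.L*, which encodes the uridylyl transferase of U6 snRNA, fell (15.8 and 15.9 normalized reads in Gcn5-AS embryos, against 89.5 and 82.0 in control embryos, 5.42-fold lower, limma-voom adjusted p of 0.00576). The median of this list was −0.31, but 0.07 without Gcn5-AS Y, and 4 of the 11 tested models were above 0. Its 14 models summed to 2141 and 1381 normalized reads in Gcn5-AS embryos, against 1328 and 1248 in control embryos. These sums include *fam46c.L* and *fam46c.1*, with 579 and 473 normalized reads in Gcn5-AS X alone. They thus do not show a rise across the list. *papd4.L* and *papd4.S*, for the cytoplasmic poly(A) polymerase Gld2, were not called (log2 fold changes of −0.31 and −0.18). Among 38 models for binding, adding and removing tails, *cpeb3.S* rose 2.63-fold, *cpsf2.S* fell 3.87-fold, and the median was −0.11. No model of this list was called higher with limma-trend or at a false discovery rate of 0.05. At a minimum mean count of 50, *cpeb3.S* and *cpsf2.S* (mean counts of 25.3 and 48.4) were not tested, and no other model was called. Scaling by total reads, with or without the 10 most abundant models, also left none called higher. Without control X no model of this list was called. In the BMP pathway, 6 of 39 models rose and 1 fell, with a median of 0.44, where 4.46% of all tested models were called higher and 4.17% lower. None was called higher with scaling by total reads, without Gcn5-AS X or without control X, 3 were without control Y and 12 without Gcn5-AS Y. Examples are the ligand gene *bmp2.S* (148 and 86.9 in Gcn5-AS embryos against 32.2 and 41.7 in control embryos), the inhibitory *smad6.L* (2.69-fold higher), the receptor gene *acvr1.L* (2.68-fold higher), and *dlx3.S*, a homeobox gene of the non-neural ectoderm, which fell 2.92-fold. The mediator genes *smad1.L* and *smad1.S* were not called (log2 fold changes of 0.36 and 0.90, limma-voom adjusted p of 0.59 and 0.206).

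Genes that act with Cdca7 were not called higher alongside *cdca7-like.1.L*. Whether the product of *cdca7-like.1.L* shares the partners of Cdca7 was not tested. Of the Cdca7 partner Hells, *hells.L* had 22.0 and 37.4 normalized reads in Gcn5-AS embryos, against 25.2 and 49.8 in control embryos. The other model, *hells.1*, had 10.3 and 18.7 in Gcn5-AS embryos, against 10.7 and 30.9 in control embryos. Neither was called (log2 fold changes of −0.23 and −0.17, limma-voom adjusted p of 0.81 and 0.895). Of 7 tested models of DNA methylation genes none was called higher, where 4.46% of all tested models were. The homeologs of the maintenance DNA methyltransferase gene, *dnmt1.S* (3.89-fold lower) and *dnmt1.L* (2.91-fold lower), fell, where 4.17% of all tested models were called lower. No model of this list was called lower without control X, and 1 was without control Y or with scaling by total reads. The list median of −0.17 turned to 0.12 without control Y. *zbtb24.L*, whose product activates *CDCA7* in human cells, had at most 4.83 normalized reads in a library and was not tested. Of 22 Myc and E2F factor models 19 were above 0, with a median of 0.47, as were 5745 of all 11272 tested models. Of these 22, *mycn.L* was called higher (2.14-fold, limma-voom adjusted p of 0.0922) and *rb1.S* lower (2.39-fold lower, 0.0696). Neither was called at a false discovery rate of 0.05, with no filter, with scaling by total reads, or without Gcn5-AS X, control X or control Y, and *mycn.L* was also lost with limma-trend and the other scalings. None of 3 models of other *cdca* genes, which share only part of the name, was called.

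Some apoptosis and stress response genes rose in the same libraries, and their part in the differences described above was not tested. Of 20 tested models 3 rose and none fell, among them the polo-like kinase genes *plk2.L* (3.29-fold) and *plk3.S* (2.29-fold), where 4.46% of all tested models were called higher. None was called with scaling by total reads or without control X, 1 was at a false discovery rate of 0.05, with no filter, with scaling outside the 10 most abundant models and without control Y, and 6 were without Gcn5-AS Y. The list had 15 models above 0 and a median of 0.99, and its 36 models summed to 1938 and 1742 normalized reads in Gcn5-AS embryos and 1223 and 1179 in control embryos, with 4 models at 0. Among early gastrula markers, 9 of 20 tested models were called higher and 1 lower, and the median was 0.83. Over all tested models 4.46% were called higher and 4.17% lower. Summed counts were 9841 and 7782 in Gcn5-AS embryos against 4626 and 4588 in control embryos. Counts of *krt12.S* were lower, with 0 and 5.60 normalized reads in Gcn5-AS embryos, against 38.1 and 41.7 in control embryos. This model passed the minimum mean count of 10 only through control embryos, so no test of it is taken as support. The marker models called higher numbered 1 with scaling by total reads and without control X, 3 without control Y and 5 without Gcn5-AS X, in alternatives added after seeing the data. Their part was not tested either.

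Of the 10 models, 6 matched an entry of a RefSeq gene table of another assembly (v10.1), which was used for gene order only. Neighbours of *armc7.L* on one side, *mif4gd.L*, *mrps7.L*, *nup85.L* and *sumo2.L*, had log2 fold changes of 0.86, −0.61, 0.24 and −0.16, none of them called by limma-voom. Of 12 tested neighbours within 4 protein-coding genes of the matched models, 1 was called, *sp8.S*, which lies near *cdca7l.S* and rose 2.88-fold. Over all tested models 4.46% were called higher and 4.17% lower. Models *iffo2.L*, *iffo2.S*, *fam46a.1* and *cdca7-like.1.L* had no entry under their names.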

How the data were processed

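Per the labels, ribosomal RNA was depleted from total RNA, and the authors aligned 75-nucleotide single-end reads with STAR to *X. laevis* genome JGI 9.1, allowing 1 mismatch. Read counter, annotation release, strand setting and versions of these tools: not given in the sources used here, so overlapping or antisense genes may share reads. The treatment text of the control samples repeats the Gcn5-AS injection, and groups were taken from the titles and knockdown labels, which name water. The deposited table holds the authors' DESeq output. For every gene model it gives a mean signal, which the authors made by dividing read counts by library size factors and taking the group average of the 2 libraries. Its fold change and p-value columns are the authors' own comparison and were not used.

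Since such a mean combines integer reads of 2 libraries, the reads could be solved for. The 21410 Gcn5-AS and 21721 control means above 0 each had 1 integer solution (relative tolerance 3e-14). Size factors were 1.46 and 1.07 for Gcn5-AS embryos and 1.87 and 0.744 for control embryos. In simulated means, 100% were recovered exactly. Without molecular identifiers, reads need not be independent molecules.

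Groups were compared with limma 3.58.1 (voom, lmFit, eBayes, two-sided) in R 4.3.3 on the recovered reads, with size factors solved from the same group means. The 11272 models whose normalized counts averaged 10 or more were tested, at a Benjamini-Hochberg adjusted p under 0.1. For this comparison counts of 10966 models were simulated with 1 common dispersion (0.047). On the log2 scale 28 of 97 changes of 1 and 92 of 94 changes of 2 were found. Of 134 calls 14 were false. A dispersion that differs between models was not simulated, so these rates may not hold for the real libraries. Homeolog pairs were compared by limma on log2 L over S ratios with a pseudocount of 0.5. Members, lists and named genes (the targeted gene, all members and family relatives, the 3 nearest patterns of each chosen model, up to 4 called genes per list by smallest p, and known partners) were chosen with earlier results of these data known. Alternatives were other thresholds, filters, scalings, a trend fit, pseudocounts, summed homeologs and leaving out each library. Tables were handled in pandas 2.3.3 under Python 3.11.15 (numpy 2.4.6). The values of 1 gene of the apoptosis and stress response list are not reported here.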

Additional observations from a re-analysis of the deposited data

How the results depend on the processing

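Counts of calls over all models depended on the processing, with 503 higher and 470 lower as reported, 223 and 242 at a false discovery rate of 0.05, 320 and 197 with a mean count of at least 50, 19 and 171 with scaling by total reads, and 194 higher with scaling by total reads outside the 10 most abundant models, where 639 were lower. Scaling by total reads moved the median log2 fold change of all models by −0.17, and leaving out the 10 most abundant models moved it by −0.22. Calls that were higher made up 51.7% as reported, 10% and 23.3% in these scalings. When 1 library was left out, between 6 and 1430 models were called higher and between 76 and 845 lower, the lowest without control X, where the lone control is the shallowest library, and the highest without Gcn5-AS Y, with 164 and 115 without Gcn5-AS X and 120 and 149 without control Y. A lone library was assumed to vary like the other group. Of the 6 models taken by name, 2 were called higher with limma-trend and with no filter, and 0 with scaling by total reads. The second of the 2 was *fam46a.S*, which is not taken as support. When a library was left out, the log2 fold change of *iffo2.S* was between 1.39 and 2.37. Distinct list members called were 12 higher and 7 lower as reported, 6 higher at a false discovery rate of 0.05, 7 higher with no filter, 0 and 3 with scaling by total reads, 5 and 12 with scaling outside the 10 most abundant models, and between 0 and 31 higher and 1 and 11 lower with a library left out. Homeolog pairs that differed numbered 1 with L over S higher and 2 lower with a pseudocount of 5, and 4 and 6 at a minimum mean count of 50. Log2 fold changes near 0 turned with scaling outside the 10 most abundant models, to −0.12 for *cdca7.S* and −0.03 for *cdca7l.L*. Without control Y they turned to −0.28 and −0.09. That of *cdca7l.S* turned to 0.24 without control X. In that setting *cdca7.S* was at 1.11 and *cdca7l.L* at 0.53, while *cdca7.L* was at −1.23. With L and S reads summed, the value was −0.48 for *cdca7* and 0.13 for *cdca7l*, each for both homeologs together. The L over S difference of *fam46b* turned to 0.00 without Gcn5-AS Y and 0.30 without control Y. The medians of the intermediate filament, non-canonical polymerase, DNA methylation and armadillo lists also turned, as given with each list. The median of the other *cdca* genes had no value at a mean of 50 or more. The cause of these shifts was not tested. No paired analysis was possible because the recovered libraries carry no replicate number. Low depth limits *cdca7.L*, *cdca7.S*, *cdca7l.S* and *fam46a.S*, with 2 to 93 reads in a library.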
